A study of Mus musculus with 48 samples.

Results

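The proteins that write and read the repressive histone mark H3K9me3 were examined for another repressive mark, H3K27me3, at their own genes. The set comprises 10 genes, all found by symbol among the 24466 genes of the H3K27me3 table: the H3K9 methyltransferase genes Setdb1, Setdb2, Suv39h1, Suv39h2, Ehmt1 and Ehmt2, the corepressor gene Trim28, and the heterochromatin protein 1 (HP1) genes Cbx1, Cbx3 and Cbx5. H3K27me3 chromatin immunoprecipitation sequencing (ChIP-seq) covered hepatocytes of mice aged 8 weeks, mature beta cells of 8 weeks sorted for a red fluorescent insulin reporter, and definitive endoderm of stage e8.25 sorted with an antibody to the surface antigen ENDM1. Embryos came from B6C3F1 females mated to C3H, Pdx1-eGFP or Ins-RFP males, per the labels' protocols, and no allele or agent other than these reporters is named for the 3 cell types. Each cell type had 2 ChIP and 2 input libraries, and the table gives 1 pooled ratio of ChIP to input per gene and cell type, so no value has a replicate error, read depth is unknown and no test between cell types was possible.

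H3K9 methylation and HP1 binding form the chromatin of silent repeats and of many silent genes. SUV39H1 and SUV39H2 place H3K9me3 at pericentric repeats, SETDB1 places it at retroelements and genes where TRIM28 recruits it, and the EHMT1 and EHMT2 pair places the dimethyl form. The HP1 proteins bind the methylated lysine through a chromodomain and can bring methyltransferases back to the same chromatin. H3K27me3 is the mark of Polycomb repressive complexes, and it lies mostly over CpG-rich promoters of developmental genes that are not transcribed.

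The authors' quantile normalization made the 3 columns alike in distribution (median 0.711, upper quartile 1.27), so a ratio says where a gene stands within its own cell type. Total H3K27me3 cannot be compared between cell types. Differences below are of log2(ratio + 0.0711), a scale that understates those of genes with low ratios, and a gene is counted as higher or lower at a difference of at least 1, which is 2-fold on this scale. As a check of the labels, 5 hepatocyte genes had a median ratio of 0.25 in hepatocytes, against 0.92 in beta cells and 0.75 in endoderm. For 5 beta cell genes the medians were 6.27 in hepatocytes, 0.42 in beta cells and 6.39 in endoderm. Single genes differed from these medians: Alb had 0.40, 0.92 and 0.37 in hepatocytes, beta cells and endoderm, and Ins2 had 1.04, 0.59 and 0.38, both lowest in endoderm. Of 3 endoderm genes, Foxa2 (0.68, 0.18 and 1.98) and Foxa1 (1.78, 6.35 and 72.6) were highest in endoderm, against its label, and Sox17 was lowest there (7.05, 4.16 and 1.42). For 4 genes of blood and endothelium the medians were 1.06, 0.88 and 1.03.

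Most of the 10 genes had H3K27me3 ratios below the median of all genes in the 2 adult cell types, and fewer did in endoderm. Below the column median lay 9 of 10 in hepatocytes, 8 of 10 in beta cells and 6 of 10 in endoderm. Of all genes 50.0% lie there by definition, and the endoderm count is near that share. Their median ratios were 0.44, 0.51 and 0.46, against 0.711 for all genes. At or above the upper quartile stood Suv39h1 alone in hepatocytes, none in beta cells, and Suv39h1 and Suv39h2 in endoderm. Of all 24466 genes, 6117, 6117 and 6290 stood there. Suv39h1 is X-linked, and of 740 other X-linked genes 712, 132 and 609 stood there. In endoderm Suv39h1 (1.30) was just above the quartile of 1.27. At least 1 of the 3 comparisons passed the 2-fold threshold for 4 of the 10 genes, or 40.0%, and for 45.0% of all genes, so the share of members was near the background. The 4 genes are Suv39h2, Suv39h1, Setdb2 and Trim28. The other 6, Setdb1, Ehmt1, Ehmt2 and all 3 HP1 genes, stayed under the threshold in every comparison.

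**Figure D1:**
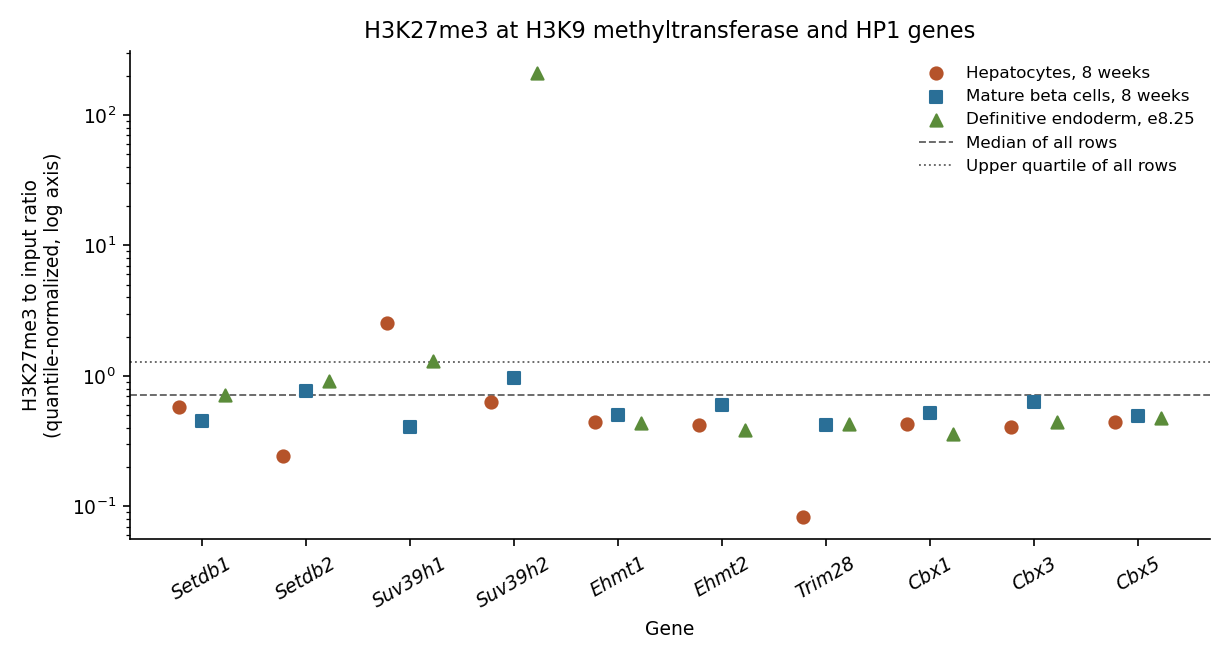
Ratio of H3K27me3 to input (log axis) of the 10 genes in hepatocytes, mature beta cells and definitive endoderm, 1 pooled value each, with the median and upper quartile of all genes as lines. Suv39h2 in endoderm (209.9) stands far above the other values, which run from 0.083 (Trim28 in hepatocytes) to 2.54 (Suv39h1 in hepatocytes).

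Counted by comparison, hepatocytes against endoderm gave 0 members higher and 3 lower (Suv39h2, Trim28 and Setdb2). The background was 12.8% of all genes higher, 13.3% lower and 26.1% in either direction. Beta cells against endoderm gave 0 higher and 2 lower (Suv39h2 and Suv39h1), with 14.1% of all genes higher, 15.1% lower and 29.2% in either direction. Hepatocytes against beta cells gave 1 higher (Suv39h1) and 2 lower (Trim28 and Setdb2), with 13.1% higher, 12.5% lower and 25.6% in either direction. The median differences of the 10 genes were -0.10, 0.01 and -0.35 in these comparisons, and those of all genes -0.03, -0.01 and -0.04. The first and second comparisons share the endoderm column. Dividing each column by its most frequent ratio, a value that recurs at 346 to 430 genes per column, moves the median of all genes to 0.38 in both comparisons with endoderm. It also raises the share of higher genes among those past the threshold to 73.3% from 48.9% for hepatocytes and to 70.9% from 48.3% for beta cells. Under this scaling Suv39h1 was also counted as higher in hepatocytes than in endoderm (1.37), and the other calls of the 10 genes were kept.

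**Figure D2:**
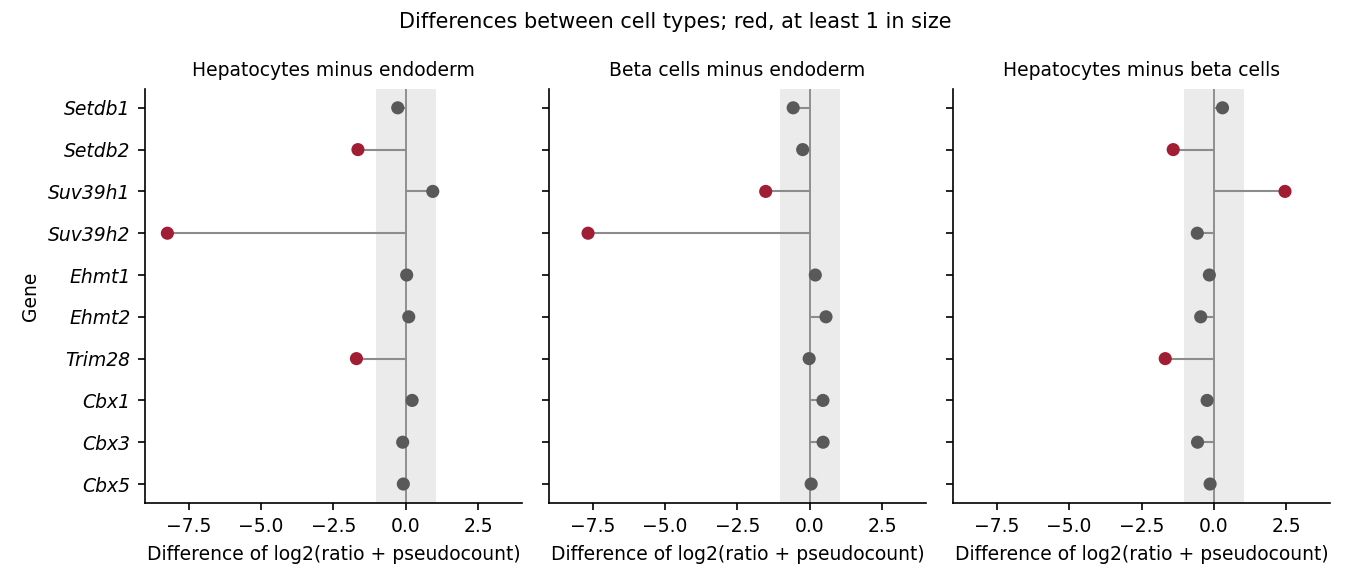
Differences of log2(ratio + pseudocount) between cell types for the 10 genes in the 3 comparisons, with the band under 2-fold in grey. Suv39h2 lies at -8.23 and -7.66 in the comparisons with endoderm, and the 3 HP1 genes lie within the band in all panels.

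Promoter sequence is shown for the 4 genes past the threshold, since H3K27me3 is known to lie over CpG-rich promoters. Each window holds 300 bases around a gene start, from RefSeq on build GRCm38.p6, read along the gene's strand with every CpG in capitals. The Suv39h2 window is chr2:3474937-3475236 (minus strand), that of Suv39h1 is chrX:8074711-8075010 (minus strand, the more upstream of 2 starts), that of Trim28 is chr7:13023902-13024201 (plus strand), and that of Setdb2 is chr14:59440831-59441130 (minus strand). The ratios were made on build mm9 over a region per gene that the sources used here do not give, so these windows need not be the measured regions.
Suv39h2 promoter window: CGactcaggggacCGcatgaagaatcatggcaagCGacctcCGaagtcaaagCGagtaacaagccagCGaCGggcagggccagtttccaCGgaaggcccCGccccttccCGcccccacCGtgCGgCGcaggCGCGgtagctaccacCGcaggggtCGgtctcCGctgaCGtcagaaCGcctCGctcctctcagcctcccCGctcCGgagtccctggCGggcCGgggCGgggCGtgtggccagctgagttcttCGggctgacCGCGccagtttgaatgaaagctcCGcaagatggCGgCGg
Suv39h1 promoter window: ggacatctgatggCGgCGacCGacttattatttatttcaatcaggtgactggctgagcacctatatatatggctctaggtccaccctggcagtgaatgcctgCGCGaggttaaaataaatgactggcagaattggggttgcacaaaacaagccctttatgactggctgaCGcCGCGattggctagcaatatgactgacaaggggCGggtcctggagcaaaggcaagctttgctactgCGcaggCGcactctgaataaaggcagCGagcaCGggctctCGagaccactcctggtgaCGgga
Trim28 promoter window: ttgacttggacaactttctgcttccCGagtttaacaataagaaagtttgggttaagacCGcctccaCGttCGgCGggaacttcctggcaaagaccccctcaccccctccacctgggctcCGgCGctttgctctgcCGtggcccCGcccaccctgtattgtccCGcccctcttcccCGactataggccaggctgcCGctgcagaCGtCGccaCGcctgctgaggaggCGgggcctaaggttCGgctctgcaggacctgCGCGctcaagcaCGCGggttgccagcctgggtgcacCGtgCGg
Setdb2 promoter window: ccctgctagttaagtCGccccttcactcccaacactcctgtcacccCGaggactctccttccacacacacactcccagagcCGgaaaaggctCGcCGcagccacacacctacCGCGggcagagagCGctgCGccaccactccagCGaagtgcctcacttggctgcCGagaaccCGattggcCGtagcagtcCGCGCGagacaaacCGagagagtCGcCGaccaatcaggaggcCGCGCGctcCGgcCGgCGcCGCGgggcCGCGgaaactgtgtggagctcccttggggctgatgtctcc

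The Suv39h2 window holds 33 CpGs, more than 91.4% of the 32851 RefSeq windows, whose median is 7. The Setdb2 and Trim28 windows hold 29 and 23. The upstream Suv39h1 window holds 15 and the window of its other start 37. RefSeq gives 14 windows for the 10 genes, and 11 of them hold at least 20 CpGs, as do 26.5% of all windows. CpG is its own complement, so the count is the same on both strands. A CpG-rich window went with a lower median ratio in this table. Among 17410 genes with a window, the 6321 with at least 20 CpGs in the first window had median ratios of 0.51 in hepatocytes, 0.53 in beta cells and 0.58 in endoderm, against 0.89, 0.89 and 0.82 for the 11089 others. At or above the 95th percentile stood 3.64%, 2.96% and 4.48% of the 6321. Of the 11089 others, 4.71%, 4.91% and 4.56% stood there, so the shares were close in endoderm. Of the 10 members 8 had such a first window, as did 36.3% of these genes. The medians of the 10 members (0.44, 0.51 and 0.46) were closer to those of the 6321 than to that of all genes. Suv39h2 and Ehmt1, with 33 and 34 CpGs, had endoderm ratios of 209.9 and 0.44.

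Suv39h2 encodes an H3K9 methyltransferase of pericentric heterochromatin that is best known from embryos and testis. Its ratio was 0.63 in hepatocytes and 0.97 in beta cells, against 209.9 in endoderm. Both adult values are near the median of all genes (rank percentiles 44.9 and 63.8), while the endoderm value is exceeded by 37 of 24466 genes. The log2 differences were -8.23 for hepatocytes and -7.66 for beta cells against endoderm, with the adult cell types at -0.57 from each other. In rank percentiles the differences were -54.95 points for hepatocytes and -36.1 points for beta cells.

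The endoderm ratio of Suv39h2 lies in a tail of the endoderm column where genes for small RNAs are frequent. Of the 37 genes above it, 32 encode microRNAs or small nucleolar RNAs, which make up 5.26% of the table. The other 5 are Mafa, Foxe1, Nkx2-4, Natd1 and Gsx1. Ratios of 100 or more were held by 68 genes in each column, of which 1 in hepatocytes, 0 in beta cells and 30 in endoderm were not small RNA genes. Among the 50 highest endoderm genes that are not small RNA genes, 46 were at or above the 75th percentile in hepatocytes and 43 in beta cells. Suv39h2, Natd1 and Cebpb were the 3 below it in both.

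Genes next to Suv39h2 did not share its endoderm ratio. Its direct neighbours in RefSeq order, Hspa14 and Dclre1c, had ratios of 0.59 and 0.40 in hepatocytes, 0.72 and 0.42 in beta cells, and 0.50 and 0.53 in endoderm. Hspa14 encodes a chaperone of the HSP70 family, and Dclre1c encodes the Artemis nuclease of DNA end joining. Over the 10 nearest genes, 5 on each side, the endoderm ratios ran from 0.19 to 2.23. The patterns nearest to that of Suv39h2, by Euclidean distance over the 3 log2 values, belonged to the small RNA genes Snora17 (0.51) and Mir219b (0.67) and to Natd1 (0.70). Natd1 had ratios of 0.53, 0.59 and 232.1 in hepatocytes, beta cells and endoderm. In beta cells Snora17 and Mir219b both sat at the most frequent ratio of that column, 0.93, and Snora17 also did so in hepatocytes (0.92).

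Suv39h1, the X-linked paralog, had a ratio of 2.54 in hepatocytes, 0.41 in beta cells and 1.30 in endoderm. These are rank percentiles of 92.6, 18.0 and 76.1, the widest span by rank among the 10 genes. By ratio, Suv39h1 was the higher of the 2 paralogs in hepatocytes, and Suv39h2 in beta cells and endoderm. The log2 difference was 2.46 between hepatocytes and beta cells, -1.52 for beta cells against endoderm and 0.93 for hepatocytes against endoderm, under the threshold. With a pseudocount 10 times larger, the difference between beta cells and endoderm was -0.85, under the threshold.

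Genes around Suv39h1 had the same order of cell types in most cases. Of its 10 nearest genes, 9 passed the threshold as higher in hepatocytes than beta cells (median difference 1.92), and 8 as lower in beta cells than endoderm (median -1.34). Of its direct neighbours, Glod5 had 1.88, 0.58 and 1.33 in hepatocytes, beta cells and endoderm, and Was, a regulator of actin in blood cells, had 2.95, 1.32 and 2.09. Across 740 other X-linked genes, medians were 2.09, 0.73 and 1.78. Of these genes, 69.1% passed as higher in hepatocytes than beta cells and 55.5% as lower in beta cells than endoderm. Among all genes the shares were 13.1% and 15.1%. The part of X linkage in the Suv39h1 result was not tested. The nearest pattern in the table was that of Araf, a kinase gene on the X chromosome, with ratios of 2.26, 0.42 and 1.21 at a distance of 0.20. The unnamed transcripts 4933439K11Rik and 2310034G01Rik followed at 0.21 each.

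**Figure D3:**
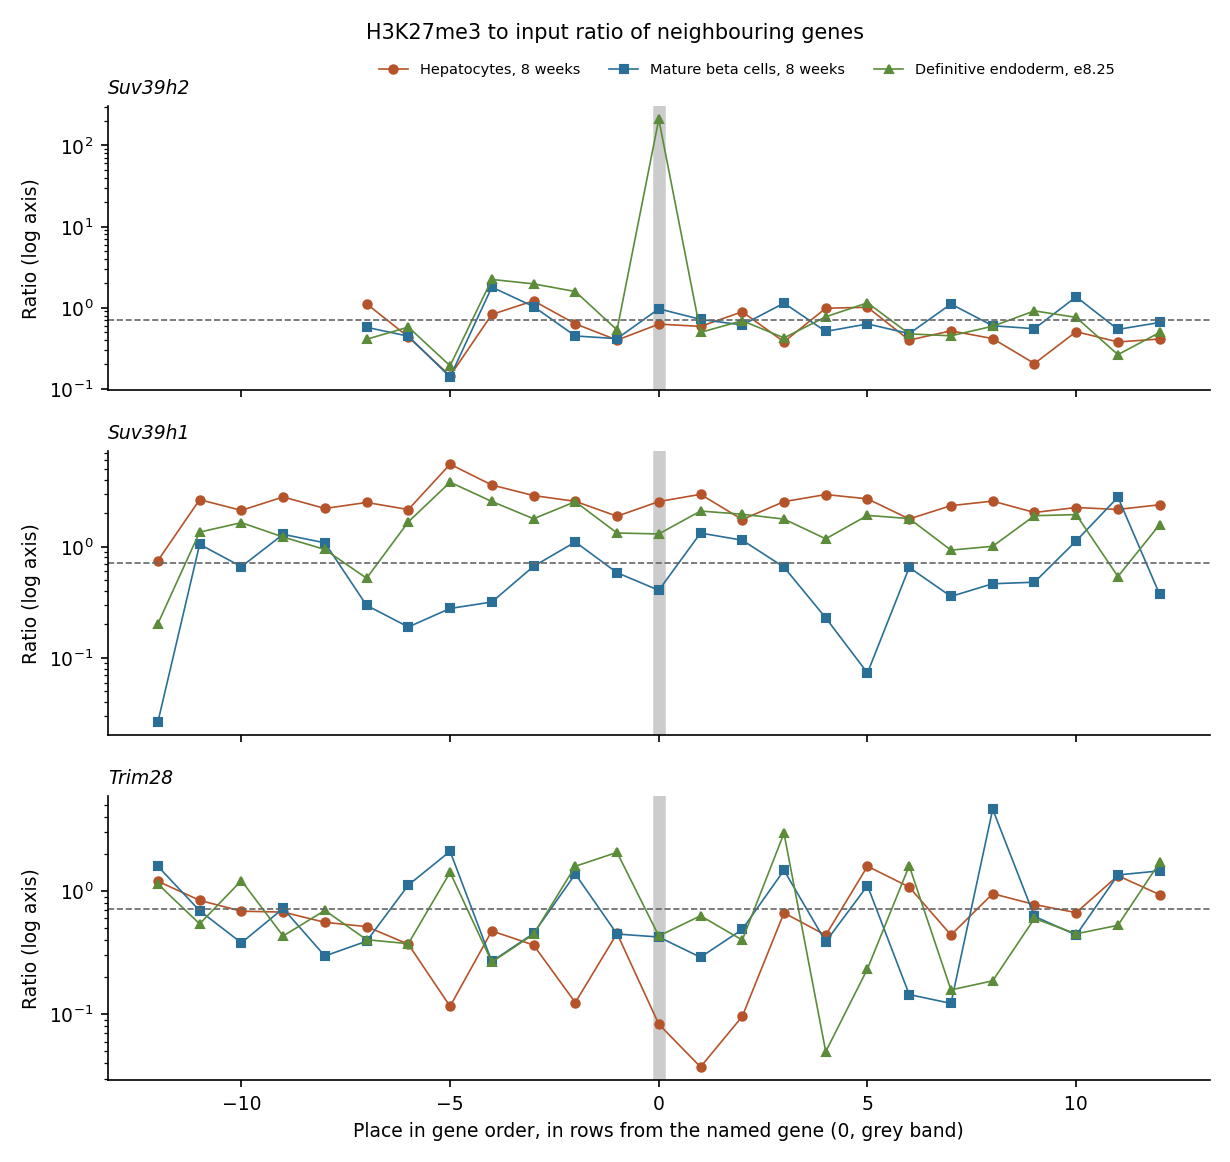
Ratio of H3K27me3 to input (log axis) along gene order, up to 12 genes on each side of Suv39h2, Suv39h1 and Trim28, in hepatocytes, beta cells and endoderm, with the median of all genes dashed. The endoderm point of Suv39h2 stands alone, the hepatocyte line lies above the beta cell line over most genes around Suv39h1, and Trim28 sits in a stretch of low hepatocyte ratios.

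Trim28, also called KAP1, encodes the corepressor that links KRAB zinc finger proteins to SETDB1. Its ratio was 0.083 in hepatocytes, against 0.42 in beta cells and 0.43 in endoderm. The hepatocyte value was the lowest of all 30 values of the set, at rank percentile 2.96. The log2 differences were -1.71 for hepatocytes against endoderm and -1.68 against beta cells, while beta cells and endoderm differed by -0.02. Both calls ended with the larger pseudocount (-0.53 and -0.51) and in rank percentiles (-18.2 and -17.1 points, under the threshold of 25).

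Genes around Trim28 were often lower in hepatocytes as well. Of its 10 nearest genes, 6 were lower in hepatocytes than in endoderm and 2 higher, and 5 were lower than in beta cells. The shares of all genes were 13.3%, 12.8% and 12.5%. The direct neighbour of Trim28 on one side, the zinc finger gene Zbtb45, had 0.45, 0.45 and 2.06 in hepatocytes, beta cells and endoderm. On the other side Chmp2a, a subunit gene of the ESCRT membrane machinery, had 0.037, 0.29 and 0.63. Slc27a5, a bile acid-CoA ligase gene of the liver, had 0.12, 1.37 and 1.59, and Ube2m, which encodes a NEDD8-conjugating enzyme, had 0.10, 0.49 and 0.40. The nearest patterns in the table were those of Tmbim6 (distance 0.06), Rnf146 (0.20) and Slc30a1 (0.20). Tmbim6 had ratios of 0.079, 0.43 and 0.42.

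Setdb2, a relative of Setdb1 with a methyl-CpG-binding domain, had a ratio of 0.24 in hepatocytes, against 0.76 in beta cells and 0.92 in endoderm. The rank percentiles were 7.17, 52.7 and 60.5. Log2 differences were -1.65 for hepatocytes against endoderm and -1.41 against beta cells, and beta cells differed from endoderm by -0.25. Both calls ended with the larger pseudocount (-0.77 and -0.63), and the call against beta cells also at a threshold of 1.5. The direct neighbour Phf11c had 0.51, 0.92 and 0.59. The promoter window of Setdb2 shares 182 bases with that of Cab39l on the opposite strand, whose ratios of 0.37, 0.54 and 0.51 differed by -0.42 between hepatocytes and endoderm, under the threshold. Of the 10 nearest genes, 0 were lower in hepatocytes than in endoderm and 2 were higher, near the shares of all genes (13.3% and 12.8%). The nearest patterns were those of Zfp653 (distance 0.06), Agpat2 (0.10) and Ass1 (0.13).

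Setdb1, the methyltransferase that acts with TRIM28, had ratios of 0.58 in hepatocytes, 0.45 in beta cells and 0.71 in endoderm. Its log2 differences were -0.28, -0.58 and 0.30 for hepatocytes against endoderm, beta cells against endoderm, and hepatocytes against beta cells. In rank percentiles the difference of beta cells from endoderm was -25.7 points, past the threshold of 25. Setdb1 and Trim28 had different orders of the cell types, with the lowest ratio in beta cells for Setdb1 and in hepatocytes for Trim28.

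Ehmt1 and Ehmt2 encode GLP and G9a, which act as a heterodimer on H3K9. Ehmt1 had ratios of 0.45 in hepatocytes, 0.51 in beta cells and 0.44 in endoderm, a range over cell types smaller than that of all but 5.22% of genes. Ehmt2 had 0.42, 0.60 and 0.39. Its difference between beta cells and endoderm was 0.56 on the log2 scale, and 26.8 points in rank percentiles, just past 25.

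The HP1 genes had low ratios in all 3 cell types. Cbx5, which encodes HP1 alpha, had 0.44 in hepatocytes, 0.49 in beta cells and 0.48 in endoderm, a log2 range of 0.13. Cbx1, for HP1 beta, had 0.43, 0.52 and 0.36, and Cbx3, for HP1 gamma, had 0.40, 0.63 and 0.44. All 9 values were below the column median. The order of the 3 genes differed between cell types, with no replicate spread to judge it by. For Cbx3 the difference of hepatocytes from beta cells was -27.4 points in rank percentiles and -0.57 on the log2 scale.

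Cbx1 and Cbx5 lie a few genes away from the HoxB and HoxC clusters, whose genes pattern the body axis and are strong Polycomb targets. Hoxb1 is 4 genes from Cbx1, and Hoxc4 is 3 genes from Cbx5. Hoxb1 had ratios of 5.21 in hepatocytes, 9.86 in beta cells and 5.90 in endoderm. Hoxc4 had 5.81, 3.97 and 7.39. Between Hoxc4 and Cbx5, D930007P13Rik had ratios of 3.33, 1.21 and 2.53, and Smug1, which encodes a uracil glycosylase, had 0.48, 0.40 and 0.79. Next to Cbx1, Snx11 had 0.56, 0.28 and 0.78.

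**Figure D4:**
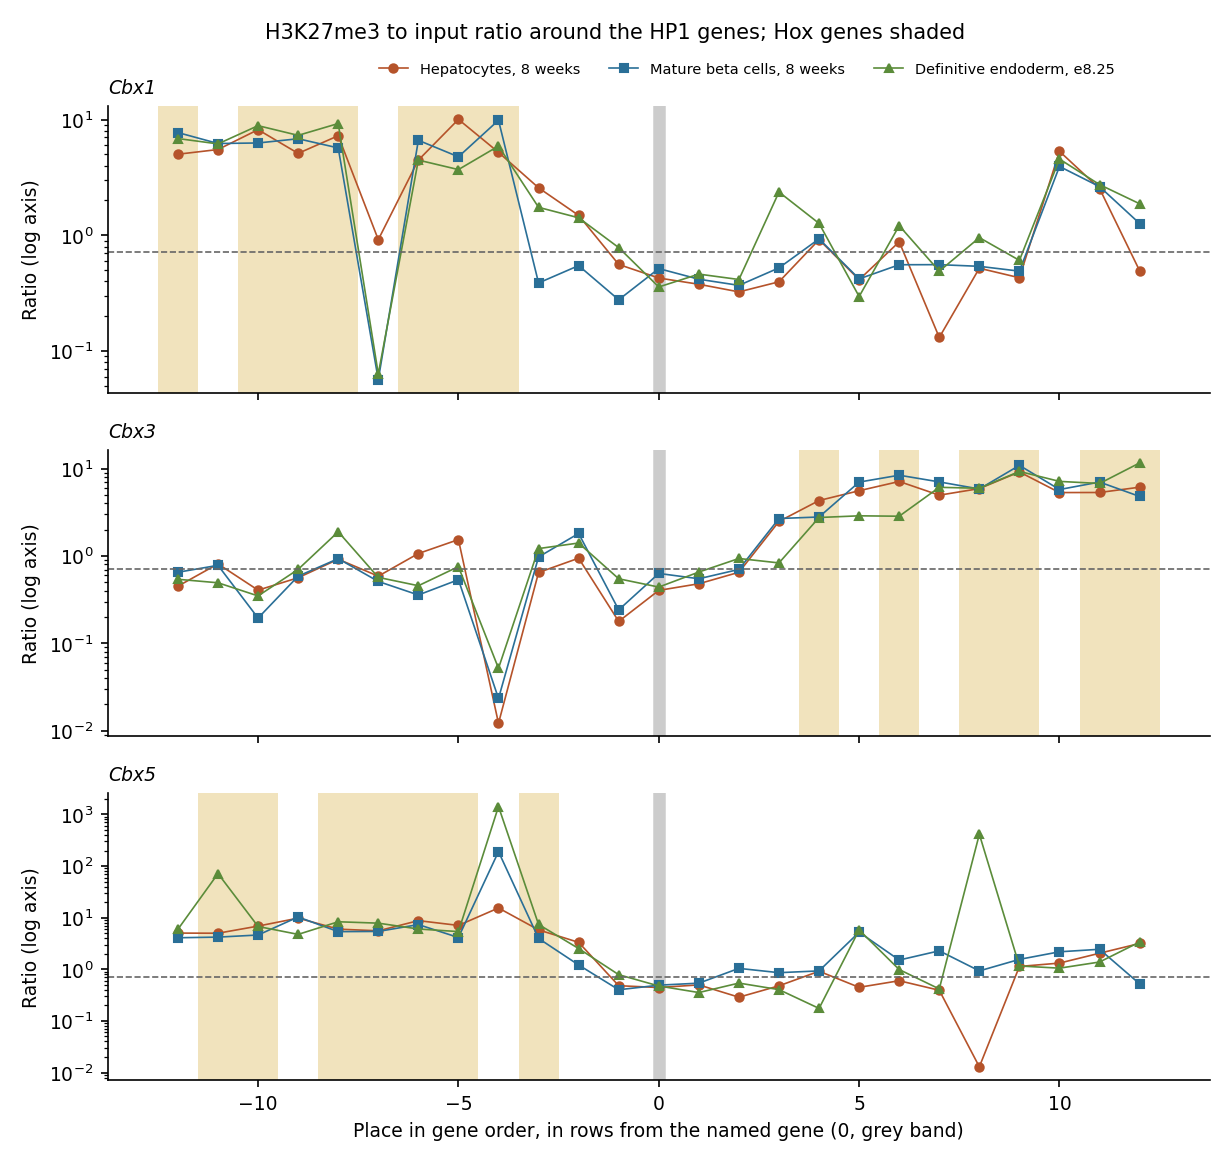
Ratio of H3K27me3 to input (log axis) along gene order, 12 genes on each side of Cbx1, Cbx3 and Cbx5, in hepatocytes, beta cells and endoderm, with Hox genes shaded and the median of all genes dashed. Most shaded genes lie between 3 and 12, and the HP1 gene in each panel lies below the median in all 3 cell types.

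Among other chromodomain genes, Cbx2, Cbx6, Cbx7 and Cbx8 encode Polycomb CBX proteins, which read H3K27me3 in place of H3K9me3. Cbx8 had ratios of 0.51 in hepatocytes, 1.04 in beta cells and 4.02 in endoderm. Against endoderm it was lower in hepatocytes (-2.83) and in beta cells (-1.88). Cbx6 had 1.44, 0.40 and 1.10, with beta cells lower against endoderm (-1.30) and hepatocytes higher against beta cells (1.67). Cbx2 had 0.51, 1.02 and 0.34, higher in beta cells than in endoderm (1.40), and Cbx7 had 0.53, 0.46 and 0.56. None of the 3 HP1 genes passed the threshold in any comparison, while 45.0% of all genes passed in at least 1. So few genes cannot show a difference between the families, and it was not tested.

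Of 11 genes for demethylases, the erasers of H3K9 methylation, 4 passed the threshold in at least 1 comparison, or 36.4%, against 45.0% of all genes. Of these genes, 2 were lower in hepatocytes than in endoderm, Kdm1a with ratios of 0.26 in hepatocytes and 0.67 in endoderm, and Kdm7a with 0.40 and 0.97. In beta cells against endoderm 2 were lower, Kdm7a again (0.36 and 0.97) and the X-linked Phf8 (0.52 and 1.55). Between the adult cell types, Phf8 was higher in hepatocytes (1.76 in hepatocytes and 0.52 in beta cells), while Kdm3a (0.23 and 0.60) and Kdm1a (0.26 and 0.63) were lower. The median differences of the list were -0.37, -0.26 and -0.04. The 2, 2 and 3 calls of the comparisons became 0, 0 and 1 with the larger pseudocount, and 0, 1 and 3 after division by the most frequent ratio. Of all 24466 genes, 6389, 7151 and 6253 passed as reported. With the larger pseudocount 2460, 3223 and 2758 of them passed, and 7112, 8055 and 6289 after the division.

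Among 4 PRDM genes reported as H3K9 methyltransferases, 1 passed the threshold in at least 1 comparison, against 45.0% of all genes. This gene, Mecom, was higher in hepatocytes (1.48) than in endoderm (0.68). Its ratio in beta cells was 1.35, and the log2 difference from endoderm was 0.93, just under the threshold. In rank percentiles that difference was 29.3 points, past the threshold of 25. Hepatocytes and beta cells differed by 0.12 at Mecom. The other 3 genes passed the log2 threshold in no comparison. With the larger pseudocount 0 of the 4 passed. Prdm8 had ratios of 5.71, 4.95 and 6.49 in hepatocytes, beta cells and endoderm, above the upper quartile in each.

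Of 26 genes for partners and readers of the pathway, 4 passed the threshold in at least 1 comparison, or 15.4%, against 45.0% of all genes. The count depends on the scale: 2, 3 and 2 passed in the 3 comparisons, and 5, 9 and 5 in rank percentiles. With the larger pseudocount 0, 1 and 0 passed, and 4, 6 and 2 after division by the most frequent ratio. Of all 24466 genes, 6389, 7151 and 6253 passed as reported and 7749, 8743 and 7377 in rank percentiles. With the larger pseudocount 2460, 3223 and 2758 of them passed, and 7112, 8055 and 6289 after the division. The distance of the list from all genes thus also depends on the scale. Zfp57, a KRAB zinc finger gene that protects imprints with TRIM28, was higher in hepatocytes (1.71) and in beta cells (2.09) than in endoderm (0.56). Mbd1, a methyl-CpG reader, was lower in hepatocytes (0.42) than in beta cells (0.96) and endoderm (1.42). Atrx, an X-linked remodeler of heterochromatin, was lower in beta cells (0.54) than in endoderm (1.71), with 1.71 in hepatocytes as well. Chaf1b, a histone chaperone subunit, was higher in beta cells (1.04) than in endoderm (0.48).

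Of 12 genes of the DNA methylation machinery, 1 passed the threshold in at least 1 comparison, or 8.33%, against 45.0% of all genes. By comparison, 0, 1 and 1 passed, and 3, 4 and 3 in rank percentiles. Of all 24466 genes, 6389, 7151 and 6253 passed, and 7749, 8743 and 7377 in rank percentiles. The X-linked genes Phf8 and Atrx of the other lists were both lower in beta cells than in hepatocytes and in endoderm, as was Suv39h1. Dnmt3a had 0.44, 0.44 and 0.93, just under the threshold against endoderm in both (-0.98 each).

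**Figure D5:**
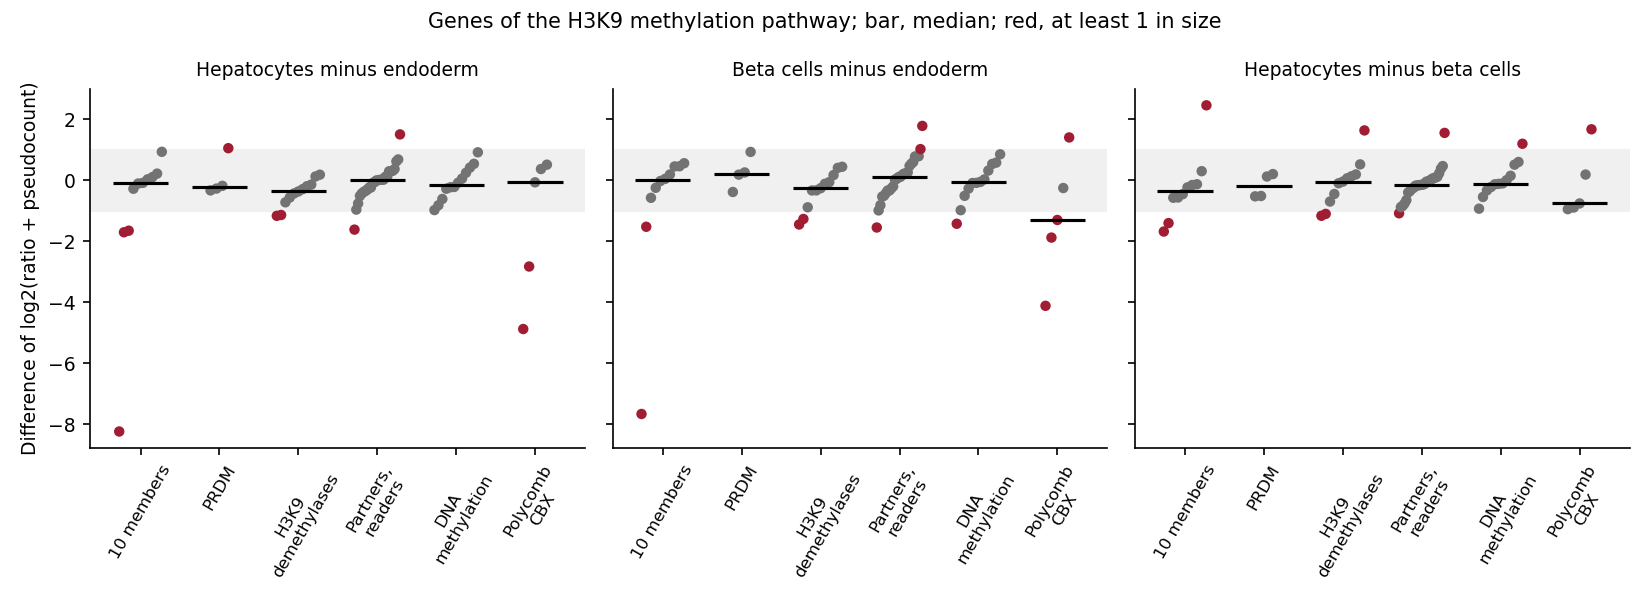
Differences of log2(ratio + pseudocount) for the 10 genes and for 5 further lists of the pathway in the 3 comparisons, 1 point per gene, with list medians as bars and points at or past 2-fold in red. Most points of the demethylase, partner and DNA methylation lists lie within the grey band, and the Suv39h2 points lie at -8.23 and -7.66.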

How the data were processed

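The series holds 48 mouse libraries, of which 36 are of H3K9me3 with inputs and were not analysed here, and 12 are of H3K27me3 with inputs. The deposited table holds, for each gene, a ratio of H3K27me3 ChIP to input that the authors quantile-normalized over the 3 cell types, per the file headers. Bowtie2 2.1.0, bedtools and build mm9 are named in the submitters' processing notes. The region per gene, the pooling of replicates and the handling of reads that map to several places were not stated in these sources. HP1 genes have processed pseudogenes, so their ratios may include shared reads.

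From the ratios, log2(ratio + 0.0711) was taken, with a pseudocount 10 times below the median, and genes were counted at a difference of 1 (Python 3.11.15, pandas 2.3.3, numpy 2.4.6). No model or test was run, and the counting was tested on simulated data. Changes were planted there only at genes with an endoderm ratio above the median, so lower ratios, where most members lie, were not covered. By symbol, 23412 of 24466 genes matched RefSeq (GRCm38.p6), which gave gene order and promoter windows. The 740 X-linked genes are those with a window on that chromosome. For list genes, RefSeq's chromosome was used. The 10 members are all named. For those past 2-fold, direct neighbours and the 3 nearest patterns are named, and from the wider lists up to 6 genes past 2-fold per comparison and the Polycomb CBX genes. Some genes under this rule are not reported here. Other neighbours, list genes and tail genes were chosen after their values were seen. The members and lists were chosen with earlier results of these data known. The planned protein comparison was not made.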

Additional observations from a re-analysis of the deposited data

How the results depend on the processing

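Of the 8 calls of single members, the Suv39h2 calls against endoderm were kept in all 10 alternatives (-8.37 to -7.30 in hepatocytes and -7.75 to -6.97 in beta cells), and that of Suv39h1 between hepatocytes and beta cells in all 9 that hold it (1.54 to 2.63). The alternatives change only scale, threshold or gene set, so none can check the pooled endoderm ratio of Suv39h2 (209.9) itself. Leaving out other genes does not change a gene's own difference, and a call at 1 also passes at 0.5. Calls kept in those alternatives were therefore fixed in advance and add no support. No difference changed sign as a call. In the order hepatocytes against endoderm, beta cells against endoderm and hepatocytes against beta cells, 3, 2 and 3 members and 6389, 7151 and 6253 genes in all passed. With a pseudocount 10 times larger these were 1, 1 and 1 members and 2460, 3223 and 2758 genes. Among genes with a mean ratio above the median, which hold 2 members, 1, 2 and 1 members and 3732, 4719 and 4062 genes passed. This filter is drawn from the ratios being compared, and the endoderm ratio of Suv39h2 is enough to carry it past. Calls kept under this filter therefore add no support. In rank percentiles 2 and 4 members and 7749 and 8743 genes passed in the comparisons with endoderm. At a threshold of 1.5, 3488, 4078 and 3558 genes passed, with 2 members between hepatocytes and beta cells. At 0.5, 12306, 13260 and 12000 genes passed, with 4 members between beta cells and endoderm and 5 between hepatocytes and beta cells. An alternative without X-linked genes was added after seeing the data. There 1 member and 6726 of 23725 genes passed between beta cells and endoderm. Between hepatocytes and beta cells 2 members and 5739 genes passed. Centring on the median after division by the most frequent ratio, also added, kept all calls. No paired analysis was possible because the table holds 1 pooled value per cell type, so no replicate could be left out either.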

Other observations

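Among genes near the HP1 and EHMT genes, a few stood far from the member beside them. Mir615, within the HoxC cluster and 4 genes from Cbx5, had ratios of 15.4 in hepatocytes, 190.8 in beta cells and 1428 in endoderm, the highest value of the endoderm column. Gpr84, 5 genes from Cbx5 on the other side, encodes a fatty acid receptor of myeloid cells and had 0.45, 5.24 and 5.79. Near Ehmt2, the complement genes C2 and Cfb, which the liver expresses, had 0.29 and 0.18 in hepatocytes, 1.59 and 1.25 in beta cells, and 1.22 and 0.62 in endoderm. These genes were picked after their values were seen.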
